A study of Homo sapiens with 6 samples.

Results

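Integrins are cell surface receptors made of 1 alpha and 1 beta chain, and 10 chain genes that form receptors around beta1, beta3 and beta7 were described here: the beta chains ITGB1, ITGB3 and ITGB7 and the alpha chains ITGA2B, ITGA4, ITGA5, ITGA6, ITGA9, ITGAE and ITGAV. The genes were chosen with earlier results of these data known. Their probe sets were found by gene symbol, not by measured values. They are all 38 that the array annotation gives to 1 of these genes alone, of 49293 probe sets tested. By gene they are 10 of 18239. The cells were MV4;11, an established human leukemia line with a rearranged MLL gene. The first group, 3 samples, received 4 µM MI-389, an inhibitor of the menin-MLL interaction, and the second group, also 3, received the solvent DMSO alone. DMSO stood at 0.25% in both for 6 days, and on day 3 the medium and agent were renewed and the cells brought back to 1 mln viable cells per ml. All samples are of this 1 line. They are labelled biological replicates without a statement of how cultures were separated, so the p-values cover the scatter of these samples alone, some of which may be technical.

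An alpha chain pairs with a beta chain inside the cell, and the pair is carried to the surface as 1 receptor, so the ligand a cell can bind depends on which chains it makes together. Beta1 is shared by many alpha chains and serves adhesion to fibronectin, laminin and the vascular ligand VCAM1. Beta7 has the partners alpha4, for the gut vascular ligand MADCAM1, and alphaE, for E-cadherin. Beta3 pairs with alphaV in the vitronectin receptor and with alphaIIb in the platelet fibrinogen receptor. In leukemia, alpha4 beta1 is known for adhesion of blasts to bone marrow stroma.

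The beta chains ITGB7 and ITGB1, described next, changed in opposite directions, and the 250 bases before their annotated starts are shown for that reason. The sequences are from RefSeq (GRCh38.p14), 5′ to 3′ on the gene's strand, at chr12:53207252-53207501 (minus strand) for ITGB7 and chr10:32958231-32958480 (minus strand) for ITGB1. Capitals mark matches on either strand to 4 motifs, GAGGAA (PU.1 box), TGTGGT (RUNX site), GGGCGG (GC box) and TGANTCA (AP-1 site), and no match shown overlaps another.
ITGB7: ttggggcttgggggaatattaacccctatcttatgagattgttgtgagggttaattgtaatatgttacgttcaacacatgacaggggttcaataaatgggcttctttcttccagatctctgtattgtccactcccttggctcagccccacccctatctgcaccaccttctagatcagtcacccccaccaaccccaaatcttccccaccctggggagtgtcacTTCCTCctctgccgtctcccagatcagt
ITGB1: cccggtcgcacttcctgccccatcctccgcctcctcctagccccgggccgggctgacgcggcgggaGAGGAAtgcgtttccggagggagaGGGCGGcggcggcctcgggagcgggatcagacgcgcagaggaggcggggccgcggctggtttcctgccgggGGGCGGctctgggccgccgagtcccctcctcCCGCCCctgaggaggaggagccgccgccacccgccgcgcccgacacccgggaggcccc
The ITGB7 window held 1 match, to GAGGAA on the opposite strand, and 49.6% G and C. The ITGB1 window held 1 match to GAGGAA and 3 to GGGCGG, and 78.4% G and C. Of the 10 genes, 8 had windows in the table, 11 windows in all. GAGGAA was in 4 of the 11 (ITGB7, ITGAE, ITGB1 and ITGAV) and in 23.6% of the 35116 promoter windows of the same length. GGGCGG was in 3 of the 11 (ITGB1, ITGA5 and a second window of ITGA6), and in 42.6% of all. TGTGGT was in 1 of the 11, against 11.0% of all, and TGANTCA in 0 of the 11, against 6.6%. A match is a description of letters and not a binding site.

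Values are log2 levels of probe sets as deposited, and a level serves to compare arrays for the same probe set, not one gene with another. Differences are MI-389 minus DMSO. A gene is represented by its probe set with the highest mean over the 6 arrays, and genes or probe sets are said to have risen or fallen at an adjusted p under 0.05 (limma, Benjamini-Hochberg over all genes or all probe sets). No detection calls were at hand, so a guide to background was taken from 23 nonspecific control probe sets: 5.49, their highest value on any array once the most GC-rich of them was set aside. Of the 18239 genes, 9571 had a mean below this guide, and a level below it does not show that a transcript was absent. Of the 10 genes, 3 rose (ITGB7, ITGAE and ITGAV) and 3 fell (ITGA6, ITGB1 and ITGA5), against 18.4% and 15.7% of all genes. The 6 called genes of 10 stand beside 34.1% of all genes. In 6 of the 10 genes both group means lay above background, 5 of them called. These stand beside 57.8% called among all genes whose mean reached the background level. ITGA2B, ITGA9, ITGAV and ITGB3 lay below it in both groups. The median difference over the 10 genes was 0.01, against 0.02 over all genes.

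**Figure D1:**
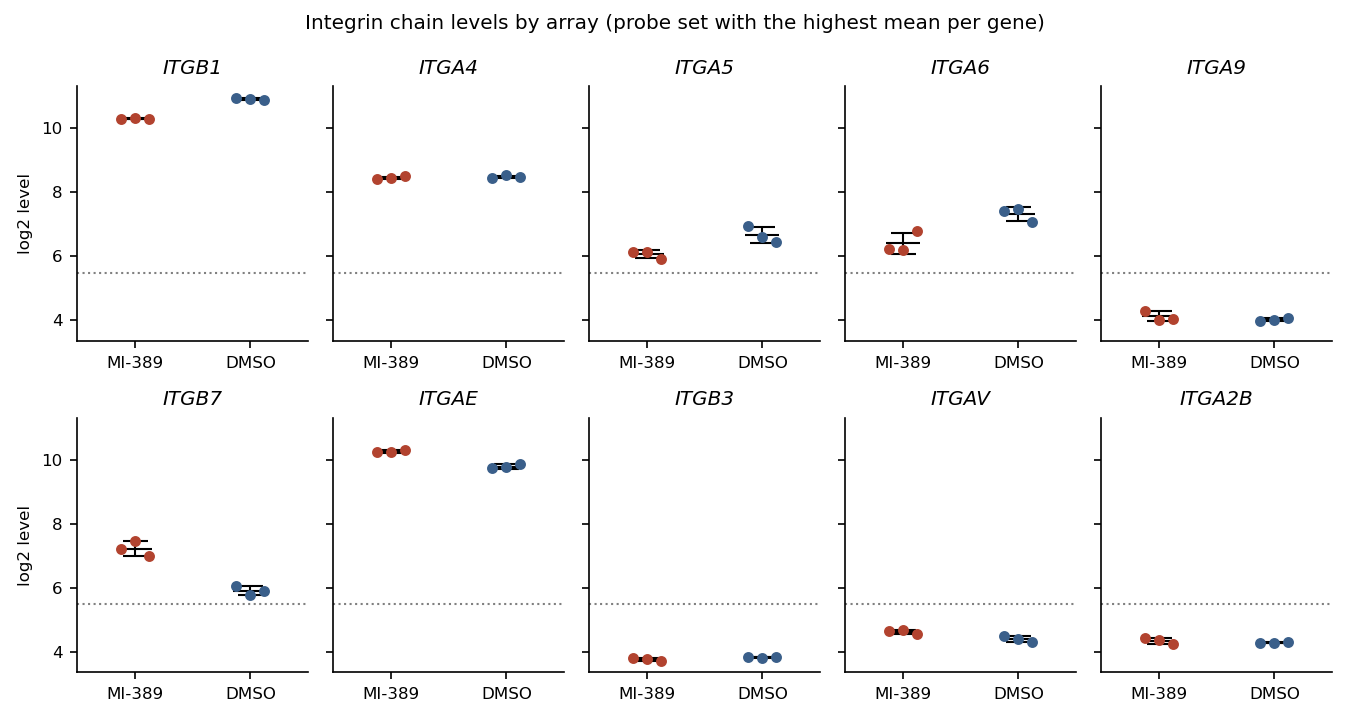
Log2 level of the probe set that represents each of the 10 integrin chain genes on every array (y axis), with MI-389 arrays in red left of DMSO arrays in blue, bars for mean and SD (n = 3 each), and the background guide of 5.49 as a dotted line. ITGB7 and ITGAE sit higher on all 3 MI-389 arrays and ITGB1, ITGA5 and ITGA6 lower, while ITGA9, ITGB3, ITGAV and ITGA2B stay under the dotted line.

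ITGB1 encodes the beta1 chain (CD29), the common partner in receptors for extracellular matrix. Its representing probe set stood at 10.29, 10.31 and 10.30 on the MI-389 arrays, against 10.96, 10.91 and 10.88 on the DMSO arrays. All MI-389 arrays lay below all DMSO arrays, and ITGB1 was 1.54-fold lower (log2 difference -0.62, SE 0.05, limma adjusted p = 9.07e-06). In bulk RNA, fewer cells that make a transcript and less of it per cell cannot be told apart. At the level of single probe sets, 4 of the 5 for ITGB1 fell, all with both group means above background. Of all probe sets, dim ones included, 14.0% fell. The 4 differed in size. Probe set 11715728_a_at changed by -0.56 (95% interval -0.72 to -0.41), 11758276_s_at by -0.62 (-0.74 to -0.49), 11758189_s_at by -1.12 (-1.36 to -0.89) and 11737219_a_at by -1.65 (-1.95 to -1.34). The intervals of the first and second overlapped, and those of the other 2 overlapped narrowly with each other and lay below both. The steepest, 11737219_a_at, stood at 5.32, 5.52 and 5.93 with MI-389, against 7.32, 7.31 and 7.08 with DMSO, so that 2 of its 3 MI-389 arrays were above background. The probe set that did not pass, 11742048_at, ranged from 3.04 to 3.21 over the 6 arrays, below background throughout. It is the only one of the 5 without the suffix a_at, s_at or x_at, and with probe sets lacking these suffixes preferred, ITGB1 changed by -0.02 (limma adjusted p = 0.849).

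ITGB7 encodes the beta7 chain of gut-homing and epithelium-binding lymphocyte receptors, and had the largest rise of the 10 genes. It stood at 7.20, 7.47 and 7.0 with MI-389, against 6.07, 5.77 and 5.89 with DMSO. The groups did not overlap and ITGB7 was 2.48-fold higher (log2 difference 1.31, SE 0.12, limma adjusted p = 1.13e-05). Its second probe set, 11756701_a_at, also rose in the test over all probe sets (adjusted p = 0.0113), where 14.0% of all probe sets rose. That probe set stood at 4.51, 4.51 and 4.52 with MI-389, against 4.33, 4.29 and 4.17 with DMSO, below background in both groups, so no fold is given. With each array centred on the hybridisation spike-ins, which were 0.25 higher on the MI-389 arrays, this second probe set differed by -0.0012 and the representing one by 1.06. ITGB7 overlaps ZNF740 in the gene table of GRCh38.p14, and ZNF740, named after its value was seen, fell by 0.38 (SE 0.08, limma adjusted p = 0.00334).

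ITGB3 encodes the beta3 chain of the vitronectin and platelet fibrinogen receptors. None of its 7 probe sets passed the test, and their values on single arrays ran from 3.16 to 3.83, all below background. The representing probe set stood at 3.80, 3.78 and 3.72 with MI-389, against 3.82, 3.81 and 3.83 with DMSO, a difference of -0.06 (95% interval -0.17 to 0.06, limma adjusted p = 0.485). The groups of this probe set did not overlap, as in 7 of the 10 genes and 45.3% of all genes.

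Among the alpha chains that pair with beta1, ITGA6 and ITGA5 fell, and the levels of ITGA4 and ITGA9 did not pass the test. ITGAV, which pairs with beta1 as well as beta3, was called higher below background and is described with beta3. ITGA6 encodes a laminin receptor chain (CD49f). It stood at 6.24, 6.19 and 6.79 with MI-389, against 7.41, 7.46 and 7.06 with DMSO. MI-389 replicate 3 was the highest of its group and lay below every DMSO array, and ITGA6 was 1.87-fold lower (log2 difference -0.91, SE 0.16, limma adjusted p = 0.00119), the largest fall of the 10. A second probe set of ITGA6, 11739860_a_at, stood at 4.16, 3.90 and 4.73 with MI-389, against 5.71, 5.96 and 5.53 with DMSO (adjusted p over all probe sets 1.62e-04). Its MI-389 arrays were all below background, which gives a fall of at least 1.18-fold, with 5.49 in place of their mean. The third probe set of ITGA6 ranged from 3.10 to 3.38 and did not pass.

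ITGA5 encodes the alpha chain of the classical fibronectin receptor, alpha5 beta1. It stood at 6.15, 6.15 and 5.93 with MI-389, against 6.95, 6.62 and 6.44 with DMSO. The groups did not overlap, with DMSO replicate 1 the highest array, and ITGA5 was 1.51-fold lower (log2 difference -0.59, SE 0.12, limma adjusted p = 0.00283). This rests on 1 of 4 probe sets, 11715703_s_at. Probe set 11715704_x_at stood at 5.64, 5.64 and 5.17 with MI-389, against 6.04, 5.67 and 5.66 with DMSO, and did not pass (log2 difference -0.30, adjusted p over all probe sets 0.149). The other 2 lay below background. With the mean of its 4 probe sets ITGA5 changed by -0.19 (limma adjusted p = 0.118), and with probe sets lacking the suffixes preferred by 0.0089.

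ITGA4 encodes the alpha4 chain (CD49d), which pairs with beta1 to bind VCAM1 and fibronectin and with beta7 to bind MADCAM1. Its representing probe set stood at 8.42, 8.45 and 8.50 with MI-389, against 8.45, 8.53 and 8.47 with DMSO. The groups overlapped and the difference was -0.03 (95% interval -0.15 to 0.09, limma adjusted p = 0.746). A second probe set above background, 11724345_at, stood at 5.90, 6.06 and 6.28 with MI-389, against 6.34, 6.31 and 6.32 with DMSO. Its groups did not overlap, and it missed the threshold (log2 difference -0.25, 95% interval -0.44 to -0.05, adjusted p over all probe sets 0.0656). Of the 3 below background, 11746767_a_at was called lower (adjusted p 0.0453), a call lost without MI-389 replicate 1 or 2 and without DMSO replicate 1 or 2 (adjusted p 0.0863 to 0.167).

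ITGA9 encodes the alpha9 chain, a receptor for tenascin C and VCAM1. Its 3 probe sets had values from 3.06 to 4.30, all below background, and none passed. The representing probe set differed by 0.11 (95% interval -0.07 to 0.28, limma adjusted p = 0.338).

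ITGAE encodes alphaE (CD103), which pairs with beta7 to bind E-cadherin and is known from intraepithelial lymphocytes and some dendritic cells. It stood at 10.25, 10.23 and 10.32 with MI-389, against 9.73, 9.77 and 9.86 with DMSO. The MI-389 arrays lay above the DMSO arrays without overlap, and ITGAE was 1.40-fold higher (log2 difference 0.48, SE 0.06, limma adjusted p = 1.17e-04). It has 1 probe set, so no second readout was at hand. ITGAE overlaps HASPIN and P2RX5 in the gene table. Neither passed the test, with differences of -0.13 (SE 0.06) for HASPIN and -0.06 (SE 0.08) for P2RX5, both named after their values were seen. Of 7 T and intraepithelial lymphocyte markers, 7 were below background in both groups, and 1, CD3D, was called higher.

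ITGAV and ITGA2B are the alpha chains that pair with beta3. All 5 probe sets of ITGAV lay below background, and 1 of them rose: it stood at 4.64, 4.67 and 4.56 with MI-389, against 4.50, 4.40 and 4.32 with DMSO (limma adjusted p = 0.0256 over genes and 0.0345 over probe sets). The call did not hold over genes without MI-389 replicate 1 or 2 or without DMSO replicate 2 or 3 (adjusted p of 0.0689 or more), nor with the mean of its 5 probe sets (0.288) or the spike-in centring. Over probe sets it was lost in 8 of 12 alternatives, including both further normalisations (0.0521 and 0.0504) and the variance trend (0.0635). ITGA2B, the platelet chain alphaIIb, had 3 probe sets with values from 3.85 to 4.42, and none passed. Its representing probe set differed by 0.05 (95% interval -0.09 to 0.19, limma adjusted p = 0.605). Of 11 measured megakaryocyte and platelet markers, 11 were below background in both groups. The list counted 1 gene higher, GP1BB, and 1 lower, GP9.

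**Figure D2:**
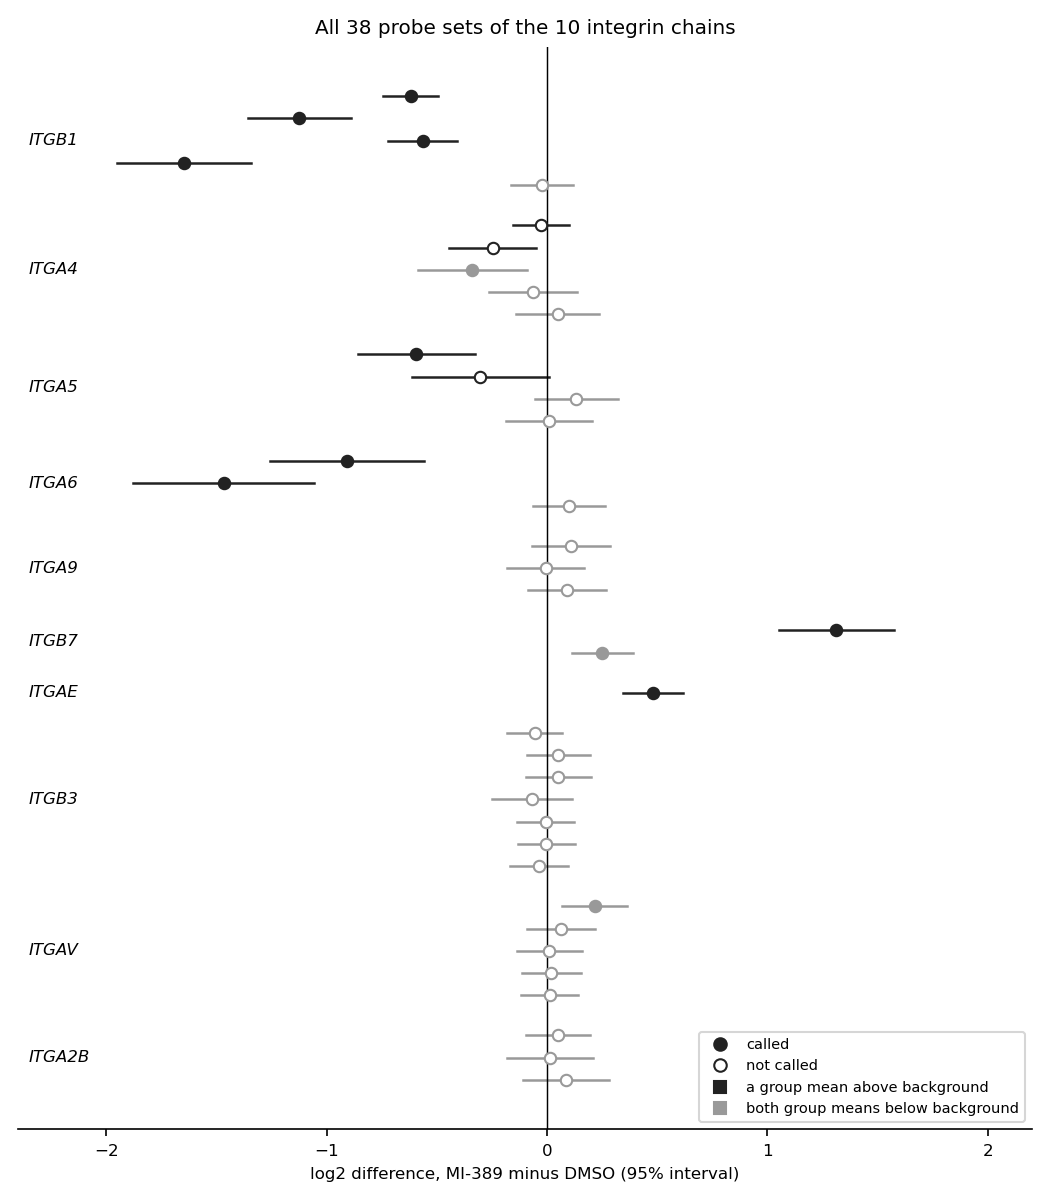
Log2 difference, MI-389 minus DMSO (x axis), with its 95% interval for all 38 probe sets, grouped by gene and ordered within a gene by mean level, the brightest on top. Filled points passed the test over all probe sets and grey ones had both group means below background. The 4 bright probe sets of ITGB1 and 2 of ITGA6 lie left of 0 and those of ITGB7 and ITGAE right of it.

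Over all 38 probe sets, 4 rose, 8 fell and 26 did not pass, so 12 were called, where 28.0% of all probe sets were. Both group means lay below background in 26 of the 38, and 3 of these 26 were called. Of the other 12 probe sets, 9 were called. The 28.0% covers dim probe sets too, and no share was computed over brighter probe sets alone. Over genes whose mean reached background it was 57.8%. The groups did not overlap in 15 of 38, against 40.4% of all probe sets.

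Because a receptor needs both chains, the alpha minus beta difference was taken within each array for 9 known heterodimers. It compares the changes of 2 probe sets and does not give the amount of any receptor. Probe sets of the same gene can themselves differ. The 4 called for ITGB1 ran from -0.56 to -1.65, and the pairs use 11758276_s_at, at -0.62. A difference therefore need not be an unequal change of the 2 transcripts. For alpha4 beta1 the MI-389 arrays lay 0.56, 0.58 and 0.63 above the DMSO mean, and the DMSO arrays -0.07, 0.05 and 0.02 from it, a mean difference of 0.59. For alpha4 beta7 the MI-389 arrays lay at -1.36, -1.59 and -1.07, against DMSO arrays at -0.19, 0.19 and 0.0007, a mean difference of -1.34. The MI-389 arrays lay above all DMSO arrays for alpha4 relative to beta1 and below all of them for alpha4 relative to beta7.

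For alphaE beta7 the MI-389 arrays lay at -0.83, -1.11 and -0.56, against DMSO arrays at -0.21, 0.12 and 0.09, a mean difference of -0.83, with both chains called higher. For alpha5 beta1, where both chains were called lower, the groups overlapped and the mean difference was 0.02 (exact permutation p = 0.9, two-sided). For alpha6 beta1, with both chains also called lower, the groups overlapped through MI-389 replicate 3 and the mean difference was -0.29 (exact permutation p = 0.3). The groups did not overlap for 7 of the 9 heterodimers. The share of 45.3% is for single genes. None was computed for differences of 2 genes, so this count has no like share beside it. The 9 share chains, with ITGB1 in 5, ITGB7 in 2 and ITGB3 in 2, so they are not separate results. For the 7 pairs without overlap the exact permutation p was 0.1 each, the smallest that 3 arrays against 3 allow. It was 0.129 after Benjamini-Hochberg adjustment over the 9, and none of the 9 can pass 0.05. In 4 of these 7 a chain below background took part (alpha9 beta1, alphaV beta1, alphaV beta3 and alphaIIb beta3). With all probe sets of each chain averaged the difference was 0.61 for alpha5 beta1, -0.30 for alphaE beta7 and 0.04 for alpha6 beta1. Between the beta chains, ITGB7 minus ITGB1 lay 1.92, 2.17 and 1.70 above the DMSO mean on the MI-389 arrays, against 0.11, -0.13 and 0.02 on the DMSO arrays, a contrast added after the values were seen.

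**Figure D3:**
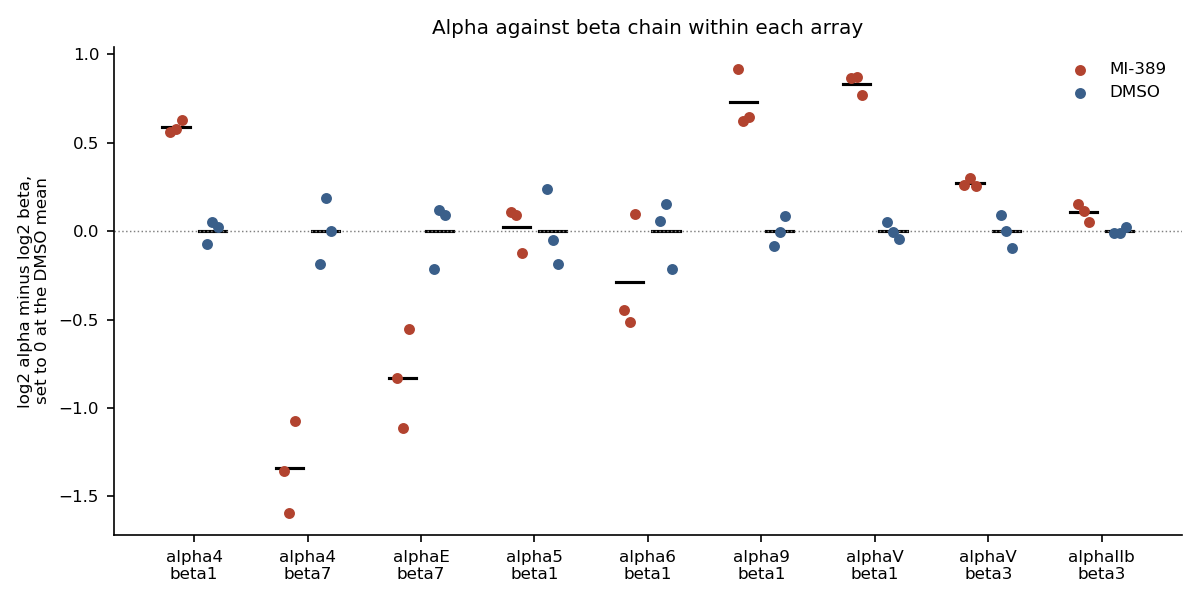
Log2 alpha chain minus log2 beta chain within each array, set to 0 at the DMSO mean (y axis), for 9 heterodimers (x axis), with MI-389 arrays in red left of DMSO arrays in blue and bars for the means (n = 3 each). The MI-389 arrays lie above the DMSO arrays for alpha4 beta1 and below them for alpha4 beta7 and alphaE beta7, and overlap with them for alpha5 beta1 and alpha6 beta1.

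The 6-array profiles nearest to that of ITGB7, by root mean square distance of log2 values after each gene's own mean was taken off, were those of DEPTOR (0.0915), PLK2 (0.0950) and DTX4 (0.0992). Nearest to ITGA6 were IER3 (0.124), LRRFIP2 (0.125) and SPMIP4 (0.130). With 2 groups of 3 arrays such likeness is mainly that of the treatment difference, which was 1.18, 1.22 and 1.36 for the first 3 genes and -1.0, -0.87 and -0.85 for the others.

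Other genes of integrin adhesion moved in both directions. Of 113 measured genes on 5 lists, 23 rose and 25 fell, 42.5% called against 34.1% of all genes, with a median difference of 0.02, as over all genes. Among the 60 of them whose mean reached background, 65.0% were called, against 57.8% of all such genes. Of 16 other integrin chains, 2 rose and 4 fell. ITGAM, the CD11b chain, was at least 4.68-fold higher when set against 5.49, and ITGAX, the CD11c chain, rose by 0.65 with 1 of its 4 probe sets called. Their shared partner ITGB2 fell by 0.87 (SE 0.09) and ITGAL, the CD11a chain, by 0.49. ITGB5 and ITGB4 were also called lower, ITGB5 with both groups below background, and ITGB4 no longer under 9 of 14 alternatives.

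Of 28 integrin ligands, 3 rose and 3 fell, and 24 were below background in both groups, among them FN1, VCAM1 and MADCAM1. SPP1, which encodes osteopontin, a ligand of alphaV and alpha4 receptors, stood at 6.72, 6.46 and 8.26 with MI-389, against 3.73, 3.43 and 3.46 with DMSO. MI-389 replicate 3 was far above the other arrays of its group, all 6 probe sets of SPP1 rose, and it was at least 3.16-fold higher when set against 5.49. LAMC1, a laminin chain, was at least 1.22-fold higher, with 3 of its 5 probe sets called, and differed by 0.15 with probe sets lacking the suffixes preferred (limma adjusted p = 0.217). ADAM15, a surface protease with an integrin-binding site, rose by 0.61, with 2 of its 6 probe sets called. TGFB1, whose latent form is bound by alphaV integrins, fell by 0.95 (SE 0.08). MFGE8 and CCN1 were called lower with both groups below background. The call of CCN1 was lost in 5 of 14 alternatives, and that of MFGE8 with its probe sets averaged (limma adjusted p = 0.118).

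Of 25 measured genes for integrin tail adaptors and activators, 7 rose and 5 fell. The integrin-activating proteins kindlin-3 and talin-1 were measured as FERMT3 and TLN1. FERMT3 stood at 7.59, 7.59 and 7.26 with MI-389, against 8.23, 8.13 and 8.22 with DMSO, and fell by 0.72 (SE 0.09). TLN1 fell by 0.62, but its 2 probe sets were called in opposite directions and their mean differed by 0.04 (limma adjusted p = 0.772). SLC3A2, the CD98 heavy chain that binds beta chain tails and also carries amino acid transporters, was 3.90-fold lower, with 7 of 7 probe sets called. ITGB1BP1, encoding ICAP-1, a protein that binds the beta1 tail and restrains its activation, stood at 9.27, 9.29 and 9.51 with MI-389, against 8.40, 8.35 and 8.38 with DMSO, and was 1.97-fold higher, with 3 of 3 probe sets called. CD47, an integrin-associated protein, rose by 0.76, DOK1 by 0.66 and ITGB3BP by 0.37, while SHARPIN, an integrin inhibitor, fell by 0.41. With arrays centred on the spike-ins ITGB3BP differed by 0.12 (limma adjusted p = 0.173).

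Of 35 measured genes of focal adhesion and integrin signalling, 9 rose and 10 fell. PTK2, the focal adhesion kinase, was 2.36-fold lower, with 1 of its 3 probe sets called. VASP, an actin regulator at adhesions, was 2.03-fold lower and the SRC family kinase FYN 1.95-fold lower. PARVB fell with both groups below background. FGR, a myeloid SRC family kinase, was 3.54-fold higher, and with probe sets lacking the suffixes preferred it differed by 0.05 (limma adjusted p = 0.638). PXN, the adaptor paxillin, was at least 1.90-fold higher, with 3 of 10 probe sets called, and differed by 0.16 under the same preference (adjusted p = 0.0982). ELMO1 and VAV3, which activate RAC signalling, rose by 0.84 each, with 1 of 4 probe sets called for ELMO1 and 3 of 6 for VAV3. Of 9 integrin-associated tetraspanins, 2 rose (CD63 by 0.52, CD53 by 0.29) and 3 fell. With the spike-in centring CD53 differed by 0.04 (limma adjusted p = 0.672). CD82 fell by 0.67 and CD151, the partner of laminin-binding integrins, by 0.48, with 5 of 5 probe sets called. TSPAN4 was called lower with both groups below background and overlapping, a call lost in 6 of 13 alternatives.

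**Figure D4:**
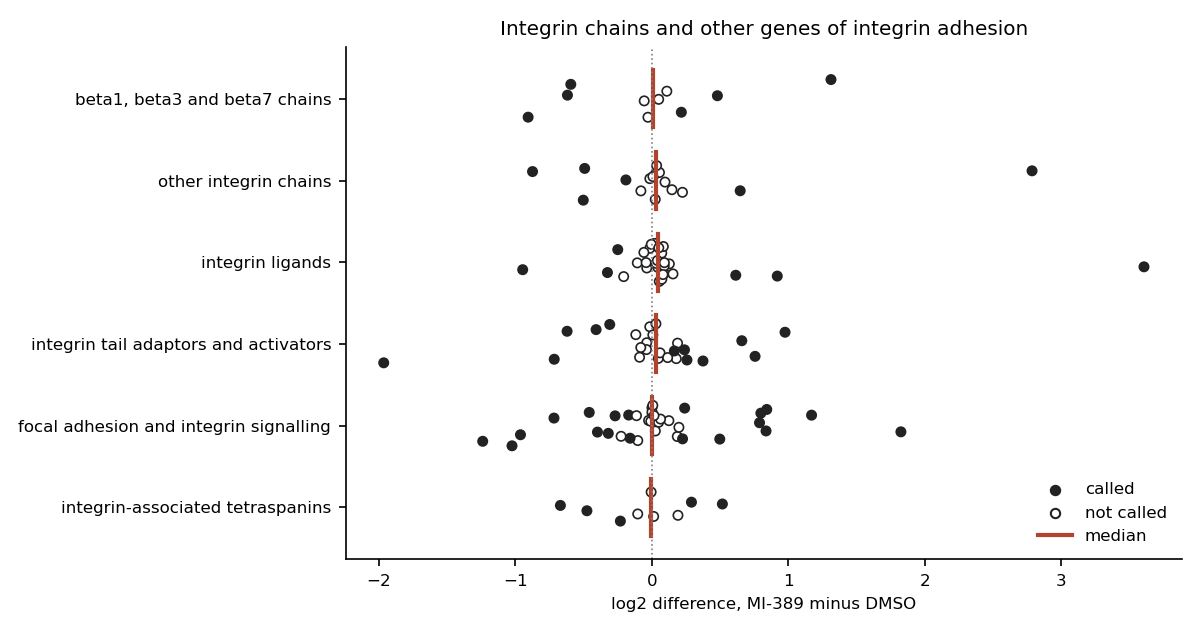
Log2 difference, MI-389 minus DMSO (x axis), of each measured gene in the integrin chains described here and in 5 other lists of integrin adhesion (rows), filled where the gene passed the test and with the list median as a red line. Each list has called genes on both sides of 0 and a median near 0, and SPP1 and ITGAM lie farthest to the right.

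The labelled cell type was checked by markers. Of 7 measured leukemia line markers, 4, among them PTPRC and FLT3, were above background in at least 1 group. In this list 2 genes were called higher (PTPRC and MPO) and 2 lower (FLT3 and SPI1), and FLT3 was 2.67-fold lower. SPI1, ANPEP and MPO were below background in both groups. Monocyte and macrophage markers moved with the treatment: 12 of 13 rose and 0 fell, against 18.4% and 15.7% of all genes. This list was chosen with earlier results of these data known, so its count is a description only. ITGAM is also among the other integrin chains. The log2 of the summed unlogged levels of the 13 markers was 13.7 to 13.8 with MI-389, against 11.3 to 11.4 with DMSO. LYZ, the brightest of the 13, weighs most in this sum, with means of 13.13 with MI-389 and 11.07 with DMSO. Of the 13, 9 were above background in at least 1 group, among them ITGAM, CSF1R, LYZ and CD68. CD14, CD163, FCN1 and VCAN were below it in both groups, and all of these but VCAN were called higher. The part of this shift in the integrin results was not tested. Of 9 epithelial, endothelial and fibroblast markers, 7 were below background in both groups, 1 rose and 2 fell. PECAM1 was above background in both groups and rose. KRT18, with means of 4.79 with MI-389 and 6.05 with DMSO, fell. COL1A1 was called lower with both groups below background. Within a group, the lowest correlation of 2 arrays across probe sets, which are no replicates, was 0.997. The hybridisation spike-ins differ between the groups as given above. With arrays centred on them the median of all genes was -0.23, and ITGB7 and ITGAE kept their rise and ITGB1, ITGA5 and ITGA6 their fall, while ITGAV differed by -0.04 (limma adjusted p = 0.702). ITGA4, ITGB3 and ITGA2B were then called lower, with differences of -0.28, -0.31 and -0.20.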

How the data were processed

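The authors deposited 1 log2 value per probe set and array for 6 Affymetrix arrays, made from 3-prime labelled total RNA. RMA and limma were used, per the submitters' processing notes, with no version or setting given there. Array medians of 4.47 to 4.50 are those of values normalised between arrays. RMA compresses dim values, so folds of dim genes are understated. No depth applies to arrays, and their number limits the precision.

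Of 49386 rows, 93 controls were left out of the tests. Probe sets annotated to 1 gene (45253) were named through the platform annotation, with symbols updated by gene ID (45172 matched) in the RefSeq table of GRCh38.p14. Tests used limma 3.58.1 in R 4.3.3 (lmFit, eBayes, two-sided, no covariates), with 1 fit for the probe set table and 1 for the gene table, tested on simulated data. For heterodimers an exact permutation test over the 6 arrays was used. A bound ("at least") sets the dimmer group's mean at 5.49 where it lies below.

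The members and lists were chosen with earlier results of these data known. Named genes are all members, up to 4 higher and 4 lower genes with the largest changes in each list, and the 3 nearest profiles of the member with the largest rise and of that with the largest fall. Genes that overlap a member, marker genes, and the ligands FN1, VCAM1 and MADCAM1 are named outside this rule, after their values were seen. Of 117 listed genes, 113 were measured, and the others were not analysed here. Alternatives were 2 further normalisations, centring on the 9 spike-in probe sets, a filter on dim features below the 40th percentile, the replicate number as a block, a variance trend, each array left out, and other choices of probe set.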

Additional observations from a re-analysis of the deposited data

How the results depend on the processing

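Of the 5 members called with both groups above background, ITGB7, ITGAE and ITGA6 kept their direction and call in all 14 alternatives, with differences from 0.78 to 1.43 for ITGB7, 0.23 to 0.52 for ITGAE and -1.16 to -0.76 for ITGA6. ITGB1 kept them in 13, and its 4 called probe sets in all 12 alternatives run on probe sets. ITGA5 kept them in 12, and changed by 0.0089 with probe sets lacking the suffixes x_at, s_at and a_at preferred, where 1 member gene fell. For ITGB1 and ITGA5 that preference picks a probe set below background. For ITGB7, ITGAE and ITGA6 it picks the reported probe set, so it could not change their differences. ITGAE has 1 probe set, so the mean of probe sets could not change its difference either. The counts of alternatives kept are therefore not alike between these genes. With the spike-in centring, which lowers every difference by 0.25, 6 member genes, 26 member probe sets and 69 genes of the adhesion lists were lower and 2 member probe sets higher. ITGA2B, ITGA4 and ITGB3 were then called at -0.20, -0.28 and -0.31, and ITGAV, its called probe set included, stood at -0.036 and the dim ITGB7 probe set at -0.0012. The split of called genes over the whole table was then 11.2% higher, against 53.9% as reported. TLN1 stood at 0.040 with the mean of its probe sets. Leaving out each array gave 2 to 3 member genes higher, 3 to 3 lower, 3 to 4 probe sets higher, 7 to 9 lower, and 21 to 24 and 20 to 23 list genes. Of all genes, 28.6% to 33.8% were called with an array left out. Samples with equal replicate numbers had deviations that correlated at -0.18, 0.026 and -0.11, and not every sample correlated best with its own number. For unlike numbers the correlations ran from -0.06 to 0.19. Deviations from a mean of 3 samples depend on each other, so these values cannot decide whether samples were paired. With the replicate block, 3 member genes were higher and 3 lower, and 4 and 8 probe sets, though the ITGA4 probe set 11746767_a_at lost its call (adjusted p 0.0741). Of all genes, 31.4% were called with the block. The filter on dim features kept 7 member genes and 20 member probe sets. Among heterodimers, the suffix preference reads ITGB1 from a probe set below background, so the values of its pairs decide nothing there. Alpha4 beta7 stood at -0.91, alphaE beta7 at -0.30, alpha5 beta1 at 0.61 and alpha6 beta1 at 0.038 with the mean of all probe sets. Signals near background limit ITGB3, ITGAV, ITGA2B and ITGA9, for which only a level below the guide can be given.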
